A study of Mus musculus with 18 samples.

Results

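The 9 genes described here encode the main components of the embryonic basement membrane: Lama1, Lamb1 and Lamc1 for the alpha, beta and gamma chains of laminin-111, Col4a1 and Col4a2 for type IV collagen, Nid1 and Nid2 for the nidogens, Hspg2 for perlecan, and Sparc for a collagen-binding matrix glycoprotein. They were chosen by symbol, as the genes whose probe sets the platform annotation names with these symbols, and make up 9 of 18194 genes and 19 of 45101 probe sets on the array. Their RNA levels were followed in 18 samples of mouse embryonic stem cells (ESCs), 1 array per sample.

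A basement membrane is a thin sheet of matrix under epithelia. Laminin heterotrimers polymerise at the cell surface, type IV collagen forms a second network, and nidogens and perlecan connect the networks. In the early mouse embryo the primitive endoderm and its derivative, the parietal endoderm, deposit such a sheet in large amounts, and laminin-111 and type IV collagen are known products of both. Pluripotent cells express the same genes at lower levels.

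All samples were labelled as male ESCs of the 129SV strain background and of the EBRTcH3 cell type. Parental EBRTcH3 ESCs in medium with serum and LIF had 2 untreated samples, 1 sample at day 2 and 2 samples at day 5 of LY294002, an inhibitor of phosphoinositide 3-kinase (PI3K). Parental ESCs in 2i, a medium known for its inhibitors of MEK and GSK3, had 1 untreated sample and 1 at day 5 of LY294002. ESCs that overexpressed wild-type c-Myc, and ESCs that overexpressed the T58A mutant of c-Myc, each had 1 untreated sample and 1 at day 2 and at day 5 in serum and LIF. Max-null ESCs, in which doxycycline (Dox) ablates expression of Max, the dimerisation partner of Myc, had 1 sample without Dox, 1 at day 4 and 1 at day 6. Max-null ESCs that overexpressed p110 alpha, a catalytic PI3K subunit, had 1 sample without and 1 with Dox, whose day the labels do not give. Both Max-null lines were also in serum and LIF. The labels do not say whether a line is 1 clone or whether samples came from separate cultures, so p-values measure the spread between these samples. One description calls the treated T58A samples N-Myc overexpressing, against their titles.

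Levels are log2 normalised intensities and changes are log2 differences, treated minus the untreated sample that the labels name as its reference, so that 1 is a 2-fold change. Levels of different genes are not compared, since each has its own probes. The 4 arrays that cover parental serum replicate 1 and 2i had medians of 5.03 to 5.05 and the other 14 had 5.31 to 5.52, so treated and untreated levels are compared only within each of these sets, and each pair lies in 1 set. Ranges over all arrays span both. The array of Max-null ESCs at Dox day 6 had the narrowest spread, with quartiles at 4.08 and 7.48. The 9 pluripotency markers, among them Pou5f1 and Nanog, were above the detection limit used here, a log2 level of 4.64, in every sample, with means of 11.83 to 12.47. Max read 8.17 to 8.71 in the parental and c-Myc arrays and 6.33 to 7.18 in the 5 Max-null arrays, untreated ones included, Myc read 6.99 and 7.51 in the untreated T58A and wild-type c-Myc lines and 7.43 in parental replicate 2, and Pik3ca read 8.82 in untreated p110 alpha cells and 8.50 in untreated Max-null cells. The labels do not say which stretches were introduced or ablated, and these levels test neither the overexpression nor the ablation.

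All 9 genes were detected. Of the 19 probe sets, 16 lay above the detection limit in all 18 samples, the single probe set of Col4a2 in 16 samples, and 1 probe set each of Lamb1 and Nid1 in none. Each gene is given by its brightest probe set. The sequence shown next lies upstream of Nid1 and Sparc, members whose level fell by day 2 of LY294002. It also holds the stretch between the starts of Col4a1 and Col4a2, the members whose levels moved together most closely.

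RefSeq sequence of build GRCm38.p6 was at hand for 6 members (Lamb1, Col4a1, Col4a2, Sparc, Nid1 and Hspg2). It is printed 5′ to 3′ on the gene's strand, with capitals marking 2 motifs on either strand, the GC box and the CCAAT box, spelled out with the search results that follow. The first is the 250 bases before the annotated start of Nid1, on the plus strand at chr13:13437352-13437601, and the second the 250 bases before that of Sparc, on the minus strand at chr11:55420081-55420330. The third is the plus strand from the annotated start of Col4a2 to that of Col4a1, 22 bases at chr8:11312805-11312826. These genes are transcribed away from each other, Col4a2 on the plus and Col4a1 on the minus strand, so both annotated transcripts contain this stretch. It lies upstream of neither start, so the GC box marked in it is not the one counted for Col4a2 in the search that follows.
Nid1: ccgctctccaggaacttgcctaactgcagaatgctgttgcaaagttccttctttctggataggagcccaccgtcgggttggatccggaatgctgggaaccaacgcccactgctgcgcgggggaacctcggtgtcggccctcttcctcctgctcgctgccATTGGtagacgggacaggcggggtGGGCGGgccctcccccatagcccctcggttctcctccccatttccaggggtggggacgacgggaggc
Sparc: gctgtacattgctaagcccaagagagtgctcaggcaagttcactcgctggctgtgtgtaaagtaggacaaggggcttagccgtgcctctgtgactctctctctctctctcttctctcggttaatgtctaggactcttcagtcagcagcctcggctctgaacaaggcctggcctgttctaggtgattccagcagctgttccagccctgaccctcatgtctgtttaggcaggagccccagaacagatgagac
Col4a1 and Col4a2: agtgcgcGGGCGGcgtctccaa

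In the 250 bases before the start, searched on both strands, the GC box GGGCGG was found in 4 of the 6 members (Lamb1, Col4a2, Nid1 and Hspg2) and in 32.7% of 32851 such windows. CCAAT was found in 4 of the 6 (Lamb1, Col4a1, Col4a2 and Nid1) and in 33.8% of windows. The E-box CACGTG, the sequence that Myc with Max is known to bind, was in none of the 6 and in 6.02% of windows. The GATA motif AGATAA was also in none of the 6, against 9.99% of windows. Its variant with a leading T, TGATAA, was in none either, against 7.94%. None of these 5 motifs was in the Sparc window. A match is a stretch of letters and no measured binding.

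**Figure D1:**
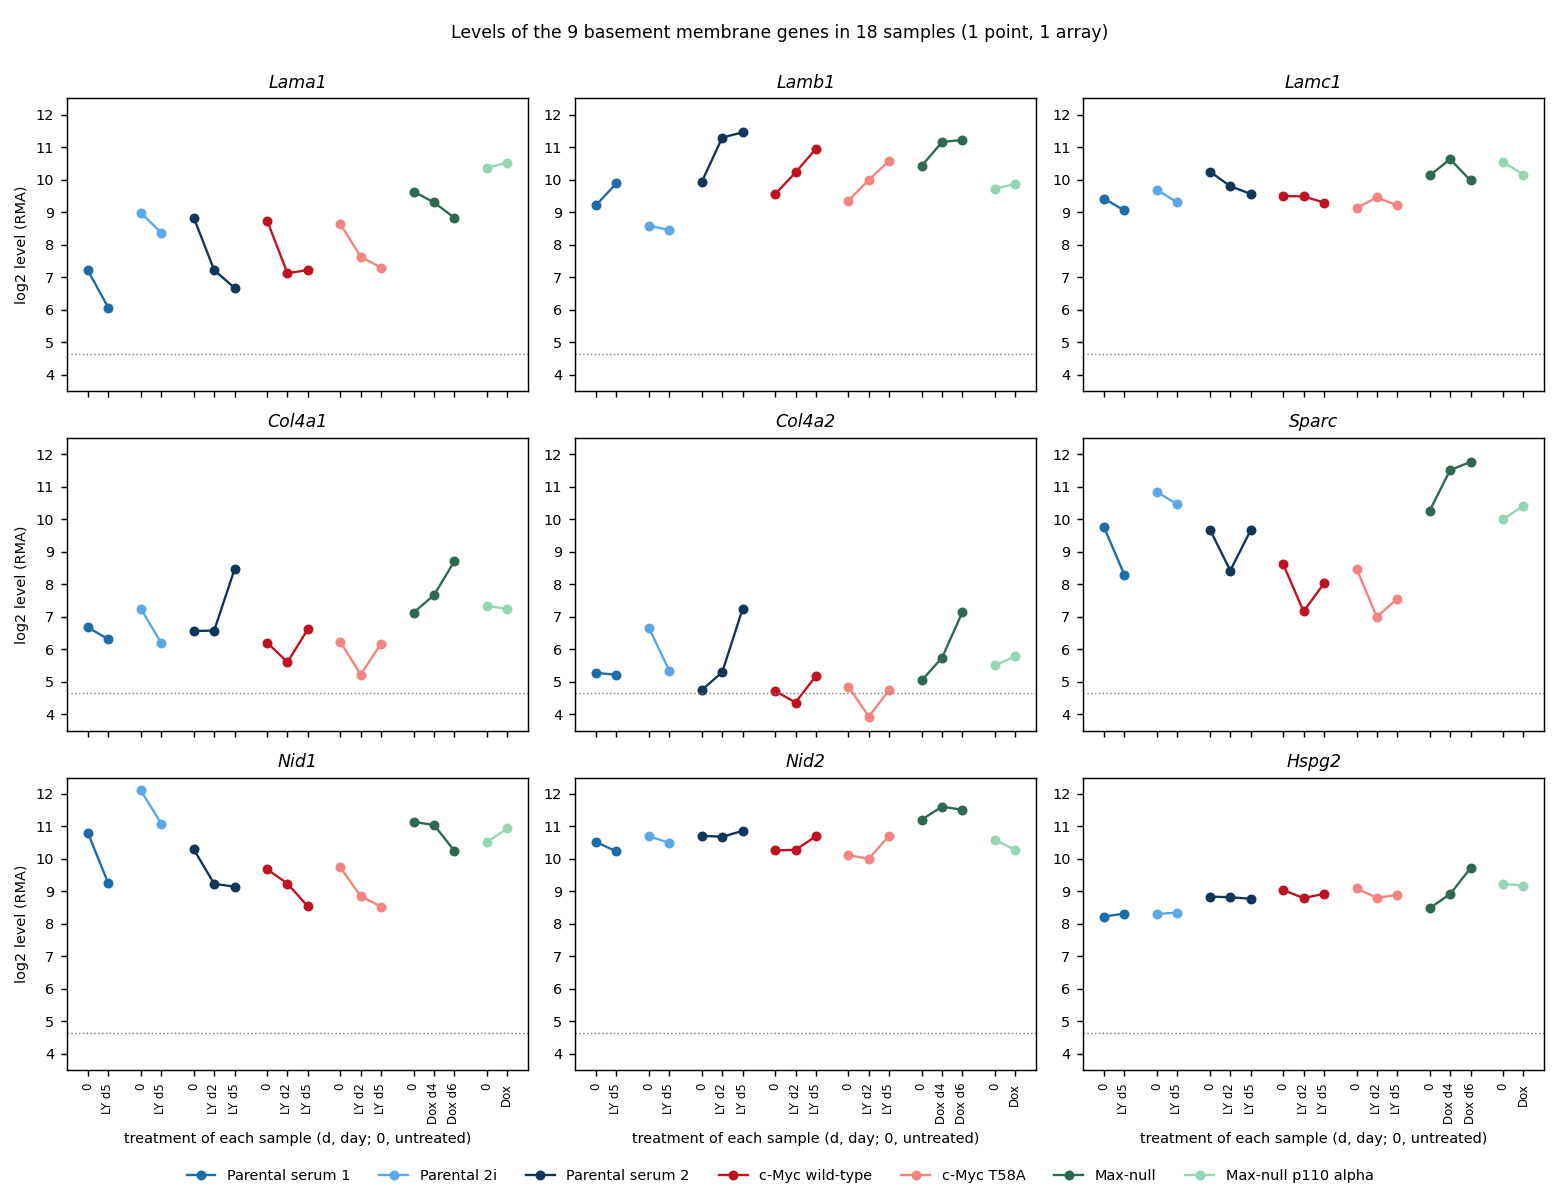
Log2 level of each of the 9 members in each of the 18 samples, with samples grouped by line and treatment. Each point is 1 array, lines join samples of 1 line, and the dotted line is the detection limit of 4.64. Lama1 is lower and Lamb1 higher in LY294002 samples of the serum lines than in their untreated samples, and Sparc spans the widest range, from 7.00 to 11.77.

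The first question was what LY294002 did to these genes over time, in the 3 serum lines with a sample at both days (parental replicate 2 and both c-Myc lines). By day 2 the laminin chain genes had parted: Lama1 fell 2.66-fold, Lamb1 rose 1.85-fold, and Lamc1 was nearly level. Sparc fell 2.64-fold and Nid1 fell 1.73-fold. With limma, line as a block and Benjamini-Hochberg adjustment over 13421 genes, 4 of the 9 members passed an adjusted p of 0.05, 1 higher and 3 lower, where 30.5% of all genes passed (18.3% higher, 12.3% lower). By day 5, 5 of 9 passed, 2 higher (Lamb1 and Nid2) and 3 lower (Lama1, Sparc and Nid1), against 44.1% of all genes (25.7% higher, 18.5% lower). The median change of the 9 members was -0.24 at day 2 and -0.13 at day 5, beside 0.04 and 0.05 over all genes. Both days share the same untreated samples. In bulk samples, less RNA per cell and fewer cells that express a gene cannot be told apart.

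Lama1, the alpha chain that carries the main cell-binding end of laminin-111, read 8.83, 8.74 and 8.64 in untreated parental, wild-type and T58A c-Myc ESCs. At day 2 these lines read 7.22, 7.12 and 7.63, and at day 5 they read 6.67, 7.22 and 7.29. Every treated sample lay below every untreated one, at both days. The change was -1.41 ± 0.17 (SE, n = 3 lines; limma adjusted p = 0.0014) at day 2 and -1.67 ± 0.17 (limma adjusted p = 0.00036) at day 5. From day 2 to day 5 Lama1 differed by -0.26 ± 0.17, which did not pass (limma adjusted p = 0.40).

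Lamb1, the beta chain, went the other way. It read 9.94, 9.56 and 9.36 untreated, 11.30, 10.22 and 9.99 at day 2, and 11.46, 10.95 and 10.58 at day 5 in the same order of lines. All treated samples were above all untreated samples, although the T58A day 2 sample exceeded the untreated parental one only narrowly. The rise was 0.89 ± 0.14 (SE, n = 3 lines; limma adjusted p = 0.0040) at day 2 and 1.38 ± 0.14 (limma adjusted p = 0.00038) at day 5. Without the block on line the day 2 rise did not pass (limma adjusted p = 0.093). The other detected probe sets of Lamb1 gave 0.86 and 0.85 at day 2 and 1.40 and 1.31 at day 5, and all of these passed among 28907 probe sets.

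Lamc1, the gamma chain that laminin-111 shares with most other laminins, read 10.25, 9.49 and 9.12 untreated, 9.80, 9.49 and 9.46 at day 2, and 9.56, 9.30 and 9.21 at day 5. Parental ESCs were lower with LY294002 and the c-Myc lines overlapped their untreated levels. Its change was -0.04 ± 0.15 at day 2 and -0.26 ± 0.15 at day 5 (SE, n = 3 lines; limma adjusted p = 0.87 and 0.19). The 3 chains of 1 heterotrimer therefore had 3 different courses at the RNA level: 1 down, 1 up and 1 without a change that passed.

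Nid1, the nidogen that bridges laminin and type IV collagen, read 10.29, 9.68 and 9.74 untreated, 9.23, 9.24 and 8.85 at day 2, and 9.15, 8.54 and 8.53 at day 5. All treated samples lay below all untreated ones. Nid1 fell by 0.79 ± 0.13 (SE, n = 3 lines; limma adjusted p = 0.0038) at day 2, and its day 5 change was -1.16 ± 0.13 (limma adjusted p = 0.00044). Its second detected probe set also fell, with changes of -0.64 and -0.87.

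Nid2, its paralog, read 10.71, 10.26 and 10.11 untreated, 10.68, 10.28 and 10.01 at day 2 and 10.86, 10.70 and 10.71 at day 5. Levels overlapped at both days. The change was -0.04 ± 0.11 at day 2, and at day 5 Nid2 rose by 0.39 ± 0.11 (SE, n = 3 lines; limma adjusted p = 0.020). That rise did not pass without the block (limma adjusted p = 0.14), without the wild-type c-Myc line (0.15) or without the T58A line (0.087).

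Sparc, the matrix glycoprotein that binds type IV collagen, read 9.69, 8.62 and 8.48 untreated, 8.42, 7.17 and 7.00 at day 2 and 9.66, 8.03 and 7.56 at day 5. Each line was lowest at day 2, and the parental line was back near its untreated level at day 5. Sparc fell by 1.40 ± 0.16 (SE, n = 3 lines; limma adjusted p = 0.0011) at day 2 and by 0.51 ± 0.16 at day 5 (limma adjusted p = 0.030). It was the only member whose day 5 to day 2 difference passed, at 0.89 ± 0.16 (limma adjusted p = 0.039), where 2.35% of all genes passed. The untreated lines differed by more than a log2 unit, and without the block none of these passed (limma adjusted p = 0.11, 0.53 and 0.50). The day 5 fall did not pass without the wild-type c-Myc line (limma adjusted p = 0.18) or without the T58A line (0.17), and the day 5 to day 2 difference did not pass in those fits either (0.35 and 0.14). A second Sparc probe set gave -1.33 at day 2 and 1.00 from day 2 to day 5, both passing, and -0.32 at day 5, which did not. The dimmest Sparc probe set, with a median of 5.99, gave -0.08 and 0.06.

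Col4a1 and Col4a2 encode the alpha 1 and alpha 2 chains that form the most widespread type IV collagen. Col4a1 read 6.57, 6.21 and 6.23 untreated, 6.58, 5.60 and 5.23 at day 2 and 8.46, 6.62 and 6.17 at day 5. Col4a2 read 4.75, 4.72 and 4.85 untreated, 5.30, 4.36 and 3.93 at day 2 and 7.24, 5.18 and 4.75 at day 5. The parental day 5 sample stood above all others of these 9, and the c-Myc lines were at their lowest at day 2. Neither gene passed at either day, with day 5 changes of 0.75 ± 0.31 for Col4a1 and 0.95 ± 0.41 for Col4a2 (SE, n = 3 lines; limma adjusted p = 0.088 and 0.10). Without the parental line both passed as lower at day 2 (limma adjusted p = 0.012 and 0.037), Col4a1 by -0.80. Both then also passed as higher at day 5 than at day 2 (limma adjusted p = 0.021 and 0.042), Col4a1 by 0.98. No size is given for Col4a2 there, since its day 2 levels in the c-Myc lines, 4.36 and 3.93, lay below the detection limit. Lamb1 and Nid2 passed as higher at day 5 than at day 2 in that fit too (0.66 and 0.56, limma adjusted p = 0.022 and 0.036). Without the T58A line, Col4a1 passed as higher at day 5 (1.15, limma adjusted p = 0.049).

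Hspg2, the gene of the heparan sulfate proteoglycan perlecan, read 8.84, 9.04 and 9.10 untreated, 8.82, 8.80 and 8.80 at day 2 and 8.77, 8.93 and 8.90 at day 5. Its changes of -0.19 ± 0.08 and -0.13 ± 0.08 did not pass (SE, n = 3 lines; limma adjusted p = 0.11 and 0.23). A second probe set of Hspg2 fell at both days, by 1.17 ± 0.12 (limma adjusted p = 0.0012 among 28907 probe sets) and by 0.80 ± 0.12 (0.0020). Both probe sets thus lay below 0 at both days but disagreed in size, and how far this gene fell is uncertain.

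**Figure D2:**
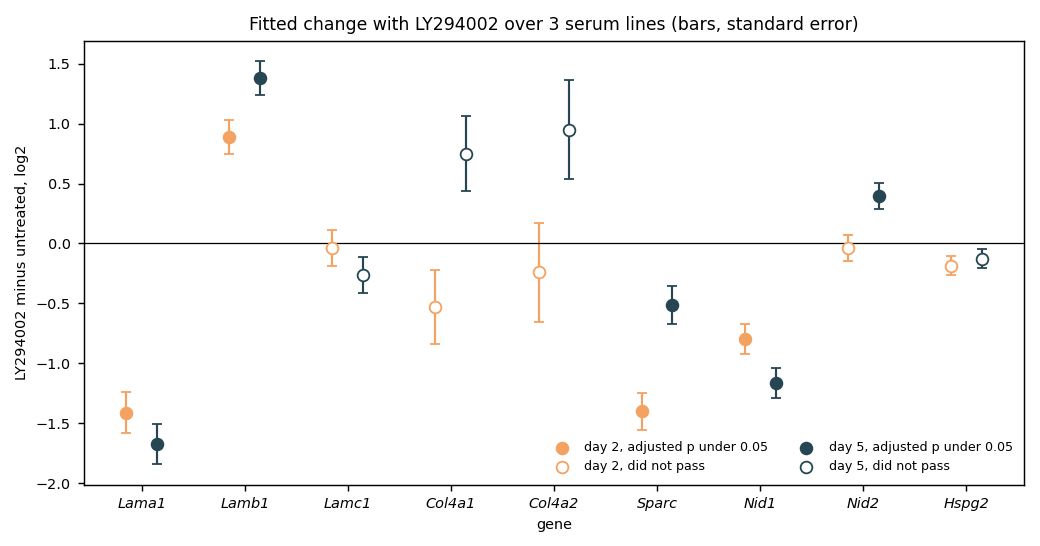
Log2 change of the 9 members with LY294002 at day 2 and day 5 relative to untreated cells in 3 serum lines, with error bars of 1 SE from limma and filled symbols where the adjusted p was under 0.05. Lama1, Nid1 and Sparc lie below 0 at both days, Lamb1 above 0 at both, and Nid2 above 0 at day 5.

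The design also asked whether overexpressed c-Myc altered the response, which was tested at day 5 in the 2 parental pairs against the 2 c-Myc pairs. Lama1 was lower with LY294002 in all 4 pairs, with changes of -2.16, -1.52, -1.34 and -1.15 in parental replicate 2, the wild-type and T58A c-Myc lines and parental replicate 1. Lamb1 was higher in all 4, between 0.67 and 1.52, and Nid1 was lower in all 4, between -1.55 and -1.14. In the parental pairs the changes were -1.65 ± 0.26 for Lama1, 1.09 ± 0.23 for Lamb1 and -1.35 ± 0.14 for Nid1 (SE, n = 2 pairs; limma adjusted p = 0.087, 0.12 and 0.057). In the c-Myc pairs they were -1.43 ± 0.26, 1.31 ± 0.23 and -1.17 ± 0.14 (SE, n = 2 pairs; limma adjusted p = 0.064, 0.061 and 0.043). With 2 residual degrees of freedom, limma passed 0 of 9 members in parental ESCs, where 0.53% of 13405 genes passed and 4 members had an unadjusted p under 0.05. In the c-Myc lines 1 of 9 passed, Nid1, against 2.62% of genes (1.53% lower). That call did not hold without the block (limma adjusted p = 0.069) or without either c-Myc pair (0.63 without the wild-type and 0.52 without the T58A pair). When either parental pair was left out, the spread in the fit was that between the 2 c-Myc pairs alone, so no calls are given from those fits. The change of Sparc in the c-Myc lines was -0.76.

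The parental pairs differed from each other in several members. Col4a1 went from 6.67 to 6.31 in replicate 1 and from 6.57 to 8.46 in replicate 2. Col4a2 went from 5.28 to 5.22 and from 4.75 to 7.24, and Sparc from 9.75 to 8.29 and from 9.69 to 9.66. In replicate 2, 3 members were at least 2-fold higher and 2 at least 2-fold lower, where 6.17% and 4.05% of genes were. In replicate 1, 0 were higher and 3 lower, against 0.664% and 3.09%. With replicate 1 left out, the parental changes of Col4a1 and Col4a2 were 1.89 and 2.49. With replicate 2 left out they were -0.36 and -0.057, and that of Sparc was -1.47. The lone pair is assumed in those fits to vary like the c-Myc pairs, so no calls are given from them.

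The difference between c-Myc and parental ESCs in the day 5 change passed for 0 of 9 members and for 0% of 13405 genes in limma, with 1 member and 457 genes at an unadjusted p under 0.05. That member was Nid2, at 0.59 ± 0.21 (SE, n = 2 against 2 pairs, limma adjusted p = 0.996, unadjusted 0.045). Without parental replicate 2 its difference was 0.81. For Lama1 the difference was 0.22 ± 0.37, for Lamb1 0.22 ± 0.32 and for Nid1 0.17 ± 0.20. For Col4a2 it was -1.04 ± 0.88, an error nearly as large as the value. At day 2, single samples gave 3 members at least 2-fold lower and 1 higher in parental ESCs (2.71% and 3.66% of genes), 2 lower and 0 higher with wild-type c-Myc (2.24% and 1.77%), and 3 lower and 0 higher with T58A c-Myc (1.32% and 1.25%). At day 5 wild-type c-Myc ESCs had 2 lower and 1 higher (3.32% and 4.13%), and T58A ESCs had 2 lower and 1 higher (2.98% and 3%).

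The 2i samples asked how the medium bears on the same genes, with 1 sample per condition and thus no test. Untreated ESCs in 2i had higher levels than untreated serum replicate 1 for 4 members by at least 2-fold and lower levels for 0, where 3.05% and 2.78% of genes were. These were Lama1 (8.99 against 7.21), Col4a2 (6.66 against 5.28), Nid1 (12.11 against 10.80) and Sparc (10.84 against 9.75). Lamb1 was lower in 2i, at 8.59 against 9.22, so in 2i too the alpha and beta chain genes of laminin-111 stood on opposite sides.

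With LY294002 for 5 days in 2i, Lama1 went from 8.99 to 8.36, Nid1 from 12.11 to 11.09, Col4a1 from 7.25 to 6.19 and Col4a2 from 6.66 to 5.34. Nid1, Col4a1 and Col4a2 were the 3 members at least 2-fold lower in this pair, and 0 were as much higher, against 2.23% and 0.435% of genes. Lamb1 went from 8.59 to 8.45, a change of -0.13, while in serum the parental replicates had 0.67 and 1.52. Sparc went from 10.84 to 10.46. At day 5 Lama1, Sparc and Nid1 were 2.30, 2.17 and 1.84 log2 units higher in 2i than in serum replicate 1, and Lamb1 was lower by 1.43, so that 3 members were at least 2-fold higher and 1 lower (3.58% and 2.57% of genes).

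The next question was how these genes changed with Dox in Max-null ESCs, and how they changed in the p110 alpha line. Only the Max-null lines received Dox, so Dox itself and loss of Max cannot be told apart here. In Max-null ESCs Sparc read 10.27 without Dox, 11.52 at day 4 and 11.77 at day 6. Col4a1 read 7.13, 7.67 and 8.71, and Col4a2 read 5.04, 5.74 and 7.15. Hspg2 read 8.49, 8.92 and 9.72. In these 4 genes each later sample was higher than the one before it on the brightest probe set. The second Col4a1 probe set read 5.42, 5.33 and 6.57, higher at day 6 alone. The second Hspg2 probe set read 8.60, 8.92 and 8.44, so here the probe sets of Hspg2 disagreed in direction at day 6. At day 4, 1 member was at least 2-fold higher, Sparc (1.24, and 0.70 on its second probe set), and 0 lower, against 5.19% and 8.71% of genes. At day 6, 4 were higher (Sparc, Col4a1, Col4a2 and Hspg2) and 0 lower, against 8.91% and 15.6%, with Hspg2 at 1.23 on its brightest and -0.16 on its second probe set. From day 4 to day 6, Col4a1 and Col4a2 rose at least 2-fold in these single samples (1.04 and 1.41) and 0 members fell as far, against 1.44% and 2.41% of genes.

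No laminin or nidogen gene reached a 2-fold change in either Dox sample of this line. Lama1 read 9.63, 9.30 and 8.83 and Lamb1 10.42, 11.16 and 11.22 at Dox days 0, 4 and 6. These were the same directions as with LY294002, whereas Sparc went the opposite way. Among all genes measured, the Lama1 changes at days 4 and 6 lay at percentiles 35.6 and 21.3, and those of Lamb1 at 91.4 and 86.3. Lamc1 read 10.13, 10.63 and 9.98, Nid1 11.14, 11.04 and 10.25, and Nid2 11.21, 11.61 and 11.51. The Nid1 level at day 6 was the lowest of its 3, and Nid2 was higher in both Dox samples than without.

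In the p110 alpha line 0 members were 2-fold changed either way, against 1.55% of genes higher and 0.445% lower. Sparc read 10.00 without and 10.42 with Dox, Col4a1 7.34 and 7.24, Col4a2 5.51 and 5.78, and Hspg2 9.23 and 9.18. Lama1 went from 10.37 to 10.52, Lamb1 from 9.72 to 9.88, Lamc1 from 10.55 to 10.16, Nid1 from 10.51 to 10.94 and Nid2 from 10.58 to 10.27. All 9 changes lay between -0.39 and 0.43. The day of this Dox sample is not given, so it has no matched time in the other line.

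Over both Max-null lines, in a fit blocked on line that leaves 2 residual degrees of freedom, limma passed 0 of 9 members and 0% of 13535 genes, with 1 member and 701 genes at an unadjusted p under 0.05. That member was Sparc, at 0.96 ± 0.32 (SE, n = 2 lines with 3 Dox samples; limma adjusted p = 0.80, unadjusted 0.021). Without the p110 alpha line Sparc passed at 1.37 (limma adjusted p = 0.028), in a fit of 1 untreated sample against Dox days 4 and 6, whose spread is that between the days. Col4a2 was at 0.92 ± 0.49, Col4a1 at 0.56 ± 0.43 and Hspg2 at 0.45 ± 0.37. The members' median was 0.45 beside -0.03 over all genes, with 6 of 9 above 0.

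**Figure D3:**
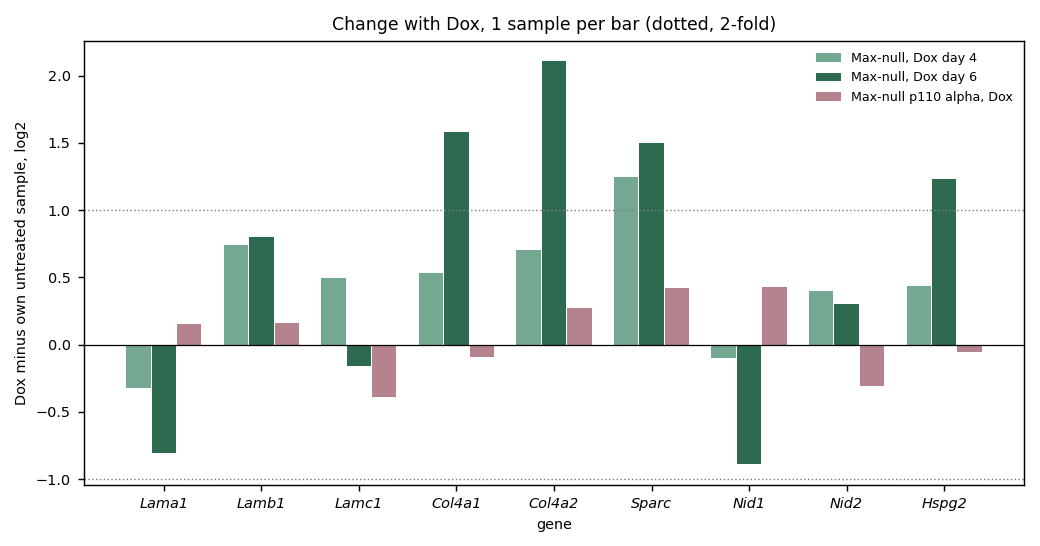
Log2 change of the 9 members with Dox against the untreated sample of the same line, 1 sample per bar, with dotted lines at a 2-fold change. Each gene is shown by its brightest probe set. Col4a1, Col4a2, Sparc and Hspg2 pass the 2-fold line in Max-null ESCs at day 6, Sparc already at day 4, and no member does in the p110 alpha line.

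Already without Dox, the Max-null lines had higher levels of most members than the 3 EBRTcH3 lines compared here (parental replicate 2 and both c-Myc lines). Lama1 read 9.63 and 10.37 in the Max-null lines against 8.83, 8.74 and 8.64, Col4a1 7.13 and 7.34 against 6.57, 6.21 and 6.23, and Sparc 10.27 and 10.00 against 9.69, 8.62 and 8.48. These groups did not overlap. In limma 8 of 9 differences were above 0, with a median of 0.72 beside -0.01 over all genes, but 0 of 9 passed, against 0.267% of 13127 genes, and 5 had an unadjusted p under 0.05. The largest was Lama1 at 1.26 ± 0.23, then Sparc at 1.21 ± 0.37, Nid1 at 0.92 ± 0.27 and Col4a1 at 0.90 ± 0.17 (SE, n = 2 against 3 lines; limma adjusted p = 0.13, 0.27, 0.25 and 0.13). Without the p110 alpha line Lama1 passed at 0.89 (limma adjusted p = 0.033), a fit in which the lone Max-null sample is assumed to vary like the 3 EBRTcH3 samples. Line of origin and Max genotype cannot be told apart here.

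Among themselves the members did not move as 1 block. Over the 14 arrays of the larger set, which share lines and untreated samples, Col4a1 and Col4a2 had a Pearson r of 0.96, and over the 9 serum arrays 0.98. Lama1 and Nid1 had 0.88 and 0.76. Lama1 and Lamb1 had -0.46 and -0.85, the lowest value of any pair of members in both. Sparc was closest to the mean of the other 8 members, at 0.98 over the 14 arrays and 0.95 over those 9 arrays. Lamb1 was farthest over the 14 arrays, at 0.21. Over those 9 arrays Lama1 was farthest, at -0.17, then Hspg2 at -0.10 and Lamb1 at 0.17. Of 13895 genes, those with the highest r with the mean of the 9 members over the 14 arrays were Jak1 (0.96), 1700012D14Rik, Abcd4, Tdrd7 and AU015836 (each 0.95). These values describe 14 arrays and carry no test.

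**Figure D4:**
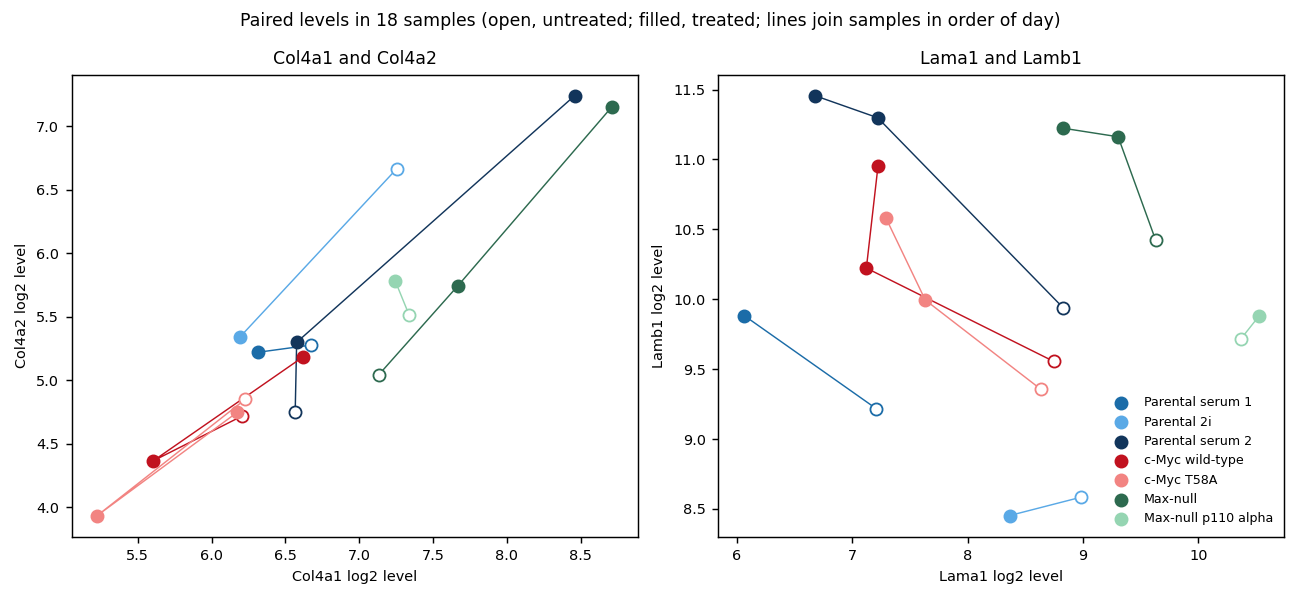
Log2 levels of Col4a2 against Col4a1 (left) and of Lamb1 against Lama1 (right) in the 18 samples, with open points untreated, filled points treated, and lines that join the samples of a line in order of day. On the left the points rise together, with parental serum replicate 2 at day 5 and Max-null ESCs at Dox day 6 at the top right, and on the right the serum LY294002 samples lie to the left of and above their untreated samples.

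Other genes of the basement membrane and of its making were taken as lists. Of 17 tested other components, 5 rose, 2 fell and 10 did not pass at day 5 of LY294002 in the 3 serum lines (2, 1 and 14 at day 2), where 44.1% of all genes passed, with a median of 0.05 beside 0.05 over all genes. Frem2, a matrix protein of the Fraser complex, rose by 1.74 ± 0.21, the endostatin-bearing collagen gene Col18a1 by 0.50 ± 0.11, the laminin alpha 5 gene Lama5 by 0.39 ± 0.09 and the fibulin gene Fbln1 by 0.60 ± 0.16 (SE, n = 3 lines; limma adjusted p = 0.00071, 0.0072, 0.0095 and 0.020). Fras1, Fn1 and Lamb3, named after their values were seen, also passed, Fn1 and Lamb3 as lower (-0.28 and -0.40) and Fras1 as higher. Fras1 has no size here, since its untreated levels of 3.69, 4.24 and 4.33 lay below the detection limit, beside 6.24, 4.97 and 4.61 at day 5. The pairs outside these lines were not all alike. At day 5 in parental serum replicate 1, Frem2 went from 5.70 to 6.66 and Col18a1 from 9.79 to 9.93. Lama5 went from 7.80 to 7.63 there and Fbln1 from 8.93 to 8.16. In 2i Col18a1 went from 8.16 to 9.04, Lama5 from 8.54 to 7.23, Fbln1 from 9.25 to 8.46 and Frem2 from 5.89 to 5.03. Lama5, an alternative alpha chain to Lama1, was thus higher in the 3 lines of the fit and lower in the other 2 pairs.

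Of 18 tested genes for collagen and laminin processing and cross-linking, 5 rose, 2 fell and 11 did not pass at day 5 (2, 3 and 13 at day 2), beside the same 44.1% of all genes, with a median of 0.05. Serpinh1, the collagen chaperone HSP47, fell by 2.13 ± 0.30, and the prolyl 4-hydroxylase genes P4ha1 and P4ha2 rose by 1.35 ± 0.11 and 0.66 ± 0.07 (SE, n = 3 lines; limma adjusted p = 0.0013, 0.00016 and 0.00034). P4ha2 had fallen at day 2 (-0.37, limma adjusted p = 0.0058). Pxdn, the peroxidase that cross-links type IV collagen, rose by 1.23 ± 0.18 (limma adjusted p = 0.0014). Also passing, and named after their values were seen, were P4hb at 0.50, Plod2 at 0.33 and Crtap at -0.35. In parental serum replicate 1 the hydroxylase genes were lower at day 5, P4ha1 at 7.68 after 8.71 and P4ha2 at 6.28 after 7.51, and in 2i likewise, at 8.35 after 9.57 and 6.61 after 8.69. Pxdn in 2i went from 6.78 to 5.74.

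Of 21 receptors, 6 rose, 4 fell and 11 did not pass at day 5 (3, 5 and 13 at day 2), again beside 44.1% of all genes, with a median of 0.08. Itga1, whose integrin binds type IV collagen and laminin, passed as higher (limma adjusted p = 0.00025). It read 6.40, 6.49 and 6.41 at day 5, and its untreated levels of 4.08, 3.87 and 4.13 lay below the detection limit, so no size is given. Its partner Itgb1 rose by 0.66 ± 0.10, while the galectin gene Lgals3 fell by 2.20 ± 0.20 and Itga9 by 1.03 ± 0.14 (SE, n = 3 lines; limma adjusted p = 0.0016, 0.00026 and 0.00095). In 2i Itgb1 went from 8.38 to 7.98 and Itga9 from 5.32 to 6.12. Of the other receptors that passed, named after their values were seen, Itga3, Sdc1, Ddr1 and Dag1 were at 1.39, 0.96, 0.77 and 0.43, and Sdc4 and Itga5 at -0.86 and -0.51. Of 10 proteases and inhibitors, 3 rose, 3 fell and 4 did not pass at day 5 (1, 2 and 7 at day 2), beside 44.1% of all genes, with a median of 0.25. The inhibitor gene Timp1 fell by 0.91 ± 0.10 and the cathepsin genes Ctsb and Ctsl by 0.63 ± 0.11 and 0.50 ± 0.09, and the protease gene Adamts9 rose by 1.28 ± 0.14 (SE, n = 3 lines; limma adjusted p = 0.00051, 0.0032, 0.0044 and 0.00051). Adamts1 and Timp2 also rose, by 0.54 and 0.79. In 2i Adamts9 went from 6.32 to 5.91.

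With Dox, 0 genes of these lists passed in limma. At an unadjusted p under 0.05 there were 3 of 17 other components, 1 of 18 processing genes, 2 of 20 receptors and 3 of 10 proteases and inhibitors, beside 701 of 13535 genes in all. Of the other components 16 of 17 were above 0, with a median of 0.33 beside -0.03 over all genes. The laminin genes Lama3 and Lamb2 were at 1.03 ± 0.27 and 1.23 ± 0.42 (SE, n = 2 lines; limma adjusted p = 0.80 for both). Lama4 and Fras1 entered the fit only through Dox samples: without Dox, Lama4 read 4.19 and 4.22 and Fras1 read 4.34 and 4.25, below the detection limit. With Dox (Max-null day 4, day 6 and p110 alpha) Lama4 read 5.32, 5.63 and 4.80 and Fras1 read 5.72, 5.32 and 4.49. P4ha2 was at 1.89, Crtap at -0.60, Loxl4 at 0.62 and P4ha1 at -0.44, and the processing genes had a median of -0.03. The collagen receptor gene Ddr2 was at 1.48, Itga7 at 0.51, Sdc2 at -0.65 and Lgals3 at -1.12, with a list median of 0.19. Adamts1 was at 1.97, Plat at 1.32, Timp2 at 1.22 and Mmp14 at -0.57, with a list median of -0.16.

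Markers of the cells that make basement membrane in the embryo were measured beside these results. Of the 10 parietal endoderm markers, 7 were above the detection limit in parental replicate 2 both untreated and at day 5 of LY294002, and their summed linear level went from 1602 to 4720. In Max-null ESCs it went from 1471 to 4277 by Dox day 6, with 8 and then 9 detected. These are the samples in which Col4a1 and Col4a2 were highest. In the other 16 samples, these untreated ones included, the sum lay between 1260 and 2293. Krt8 and Krt18, keratins of simple epithelia, held much of it, at 10.34 and 10.48 in the first of these samples and 10.29 and 10.22 in the other. Over the 3 serum lines at day 5, 3 of 8 tested markers rose, Krt18 (2.97 ± 0.34), Krt8 (1.99 ± 0.50) and Krt19, 2 fell, Snai1 (-0.64 ± 0.12) and Srgn, and 3 did not pass (SE, n = 3 lines; limma adjusted p = 0.00057, 0.015, 0.0080, 0.0045 and 0.0027), where 44.1% of all genes passed. Krt19 lay below the detection limit in all 3 untreated samples (4.30 to 4.36) and Srgn in all 3 day 5 samples (4.09 to 4.21), so neither has a size. The list's part in the collagen levels was not tested.

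Of 12 tested primitive and visceral endoderm markers, 1 rose at day 5, Dab2 (0.80 ± 0.12), 2 fell, Apoe (-1.36 ± 0.09) and Sox7, and 9 did not pass (SE, n = 3 lines; limma adjusted p = 0.0018, 9.6e-05 and 0.00023), Lrp2 at -0.44 among them. Sox7 lay below the detection limit in all 3 day 5 samples (3.44 to 3.71) and has no size, and Dab2 did so in both untreated c-Myc samples (4.34 and 4.25). Gata4, a defining regulator of this lineage, read at most 4.76 in any sample, near the detection limit, and the summed level of the list lay between 3197 and 8656. In Max-null ESCs without Dox and at days 4 and 6, 7, 11 and 13 of its 15 markers on the array were detected. Their mean log2 level there was 5.21, 5.84 and 6.15, the last being the highest of any sample, while their sum was 4333, 4659 and 3362. That day 6 array is the one with the narrowest spread. Of 6 tested fibroblast markers, which would show feeder cells, Acta2 rose (1.21 ± 0.31, limma adjusted p = 0.015) and 5 did not pass, Twist1 at 0.43, Col1a2 at 0.25 and S100a4 at 0.10 among them. Col1a1 was below the detection limit in every sample but Max-null Dox day 6, where it read 4.94, and that sample also had the highest summed level of the list, 694 against 228 to 444 elsewhere. Of the 9 pluripotency markers, Utf1 rose (1.02), Esrrb (-0.71), Zfp42 (-0.64), Klf4 (-0.46) and Nanog (-0.35) fell, and 4 did not pass. Beside each of these marker lists at day 5, 44.1% of all genes passed, 25.7% higher and 18.5% lower.

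With Dox, 0 markers of these lists passed in limma. The parietal endoderm list had a median of 1.12 with 7 of 8 above 0, and 2 of its genes had an unadjusted p under 0.05, Plat at 1.32 and Fst at 0.99. Snai1 at 1.34 and Krt18 at 1.33 did not. Plat is also on the list of proteases and inhibitors, so the same value stands under both lists. The primitive and visceral endoderm list had a median of 0.49 with 11 of 13 above 0, and 2 of its genes had such a p, Dab2 and Cited1. Both entered through Dox samples, as did Pdgfra, since without Dox they lay below the detection limit, Dab2 at 4.46 and 4.29, Cited1 at 3.66 and 3.78 and Pdgfra at 4.17 and 4.07. Sox7 was at -0.58 and above the limit in the p110 alpha line alone. The fibroblast list had a median of 0.61 with 4 of 6 above 0, and 1 of its genes had such a p, Col1a2 at 0.96. Acta2 was at 1.10 and Dcn at 0.26, and Col6a1 read 3.99 and 4.23 without Dox, below the detection limit, and 5.89, 6.10 and 4.13 with it. The pluripotency list had a median of -0.21 with 2 of 9 above 0, and 0 of its genes had such a p, with Zfp42 at -0.38, Utf1 at -0.30, Klf4 at -0.29 and Sox2 at -0.23. These shifts moved in the same samples as Col4a1, Col4a2, Sparc and Hspg2, and their part in those levels was not tested.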

How the data were processed

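RNA of 18 mouse ESC samples was measured on Affymetrix arrays. Per the labels, total RNA was prepared with TRIzol and labelled as biotinylated cRNA. The deposited values are log2 levels per probe set, which the authors made with RMA in the affy package, per the submitters' processing notes (versions not given in the sources used here). Precision is limited by the number of arrays.

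The members and lists were chosen with earlier results of these data known. Of 45101 probe sets, 64 were controls and 34958 named 1 gene in the platform annotation, giving 18194 genes, each represented by its brightest probe set on average. A gene entered a fit if 2 or more of the samples fitted exceeded 4.64, the 40th percentile of all log2 values. Changes were fitted with limma 3.58.1 (lmFit, eBayes, R 4.3.3), two-sided, with Benjamini-Hochberg adjustment over all genes tested and a threshold of 0.05. The line or pair was a block, because descriptions name each treated sample's reference. In the pair fit, differences between pairs correlated over 13405 genes at r = 0.56 (parental) and 0.17 (c-Myc) between untreated and day 5 samples. The parental pairs lie in different array sets, so an offset between the sets enters both parental differences, and that value cannot show the pairing by itself. Residual degrees of freedom were 4 (both days of LY294002), 2 (day 5 by c-Myc, Dox) and 3 (untreated lines). Single pairs were described at 2-fold with no test. Named genes were all 9 members, and of each list the 4 genes with the smallest p at day 5 of LY294002 and with Dox. The fits were tested on simulated data. Alternatives changed the filter, array scaling, probe set, eBayes prior, block and samples. Fits of the other member probe sets among all probe sets were chosen after seeing the data. That the arrays come from separate RMA runs is inferred from their medians.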

Additional observations from a re-analysis of the deposited data

Results flagged for a closer look

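Lamb1 was at -0.13 with LY294002 at day 5 in 2i and at a mean of 1.09 in the 2 parental serum pairs, opposite directions in every sample on its brightest probe set. The other detected probe sets of Lamb1 were at 0.033 and 0.12 in 2i, so the fall there was not shared by them. The other cases set Dox in the p110 alpha Max-null line against the mean of both days in the Max-null line, where the directions were again opposite in every sample on the brightest probe sets. Lama1 was at 0.15 against -0.56, Col4a1 at -0.095 against 1.06, Nid1 at 0.43 against -0.49, Nid2 at -0.31 against 0.35 and Hspg2 at -0.055 against 0.83. The second Hspg2 probe set was at -0.095 in the p110 alpha line and at 0.32 and -0.16 in the Max-null line at days 4 and 6. The second Col4a1 probe set was at -0.045 and, at those days, at -0.093 and 1.15. On these probe sets the directions were thus opposite at 1 day and the same at the other. None of these differences was tested, since 1 side has a single pair. No group holds 4 samples, so no sample could be examined as an outlier within its group.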

How the results depend on the processing

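Among the limma counts of members passing, 56 alternative values lay within 1.5 times the main count, or were 0 where it was 0, and 21 did not. Among the single-pair counts of members at least 2-fold changed, 6 alternative values did not. Without the replicate block on line or pair, the count passing was 2 at day 2 (main 4), 3 at day 5 in the 3 lines (main 5), 0 for day 5 minus day 2 (main 1) and 0 at day 5 in c-Myc ESCs (main 1), and it changed no other count. With a trended and robust eBayes prior 2 passed for day 5 minus day 2. In parental ESCs at day 5 (main 0), 1 passed with that prior, with no level filter and with the mean of all probe sets, Nid1 each time. Leaving out 1 line, pair or sample in turn gave 4 to 6 at day 2, 3 to 5 at day 5 in the 3 lines and 0 to 5 for day 5 minus day 2. In the other comparisons such fits can leave a lone pair or sample in a group, so no counts are given. The share of all genes that passed under each alternative is not given here. These counts therefore cannot tell a shift of the members from a shift of all genes. Dox without the Max-null line leaves no residual degrees of freedom and was not run.

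Of single members, Sparc in the c-Myc minus parental difference (main -0.02) was 0.016 with median-centred arrays and 0.090 with the mean of probe sets, Hspg2 in parental ESCs (main 0.01) was -0.37 with that mean, and with quantile normalisation Lamc1 and Nid1 under Dox (main -0.07 and -0.10) were 0.023 and 0.0056. The dimmest Sparc probe set gave 0.060 at day 5 (main -0.51). The cause was not tested. Over the same leave-one-out fits the sign turned for Lamc1 and Col4a2 at day 2 (-0.23 to 0.16 and -0.63 to 0.10), and in parental ESCs for Col4a1 (-0.36 to 1.89), Col4a2 (-0.057 to 2.49), Nid2 (-0.29 to 0.15) and Hspg2 (-0.066 to 0.092). It turned in c-Myc ESCs for Lamc1 (-0.20 to 0.085), Col4a1 (-0.054 to 0.41) and Col4a2 (-0.10 to 0.46). In the difference between them it turned for Lama1 (-0.29 to 0.72), Lamb1 (-0.21 to 0.65), Col4a1 (-1.72 to 0.54), Col4a2 (-2.31 to 0.24), Sparc (-0.74 to 0.71) and Nid1 (-0.028 to 0.38). With Dox it turned for Lamc1 (-0.27 to 0.17), Nid1 (-0.49 to 0.17) and Nid2 (-0.0037 to 0.35), and between untreated lines for Hspg2 (-0.51 to 0.24). Of these main values Sparc at day 5 alone had passed. Signal limits Col4a2 most: its day 2 levels in both c-Myc lines lay below the detection limit and its untreated levels in the 3 lines just above it.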
